A study of Mus musculus with 8 samples.

Results

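Zbp1, Mlkl and the genes of the RIPK and caspase-8 death complex were followed across bone marrow-derived macrophages (BMDMs) that lacked Trex1 and received STING antagonists. The 7 genes, Zbp1, Ripk3, Mlkl, Ripk1, Fadd, Casp8 and Cflar, were chosen by name and matched by their Ensembl identifiers. They stand among 54532 genes in the count files, and all 7 were among the 14591 that passed the filter on low counts. Polyadenylated RNA was sequenced from 4 groups of 2 libraries: wild-type (WT) BMDMs given the vehicle DMSO, BMDMs from Trex1-/- mice given DMSO (Trex1-KO), Trex1-KO BMDMs given H151, and Trex1-KO BMDMs given SN-011. H151 and SN-011 are small molecules that block STING, the adaptor that passes on the signal of the cytosolic DNA sensor cGAS. The labels give donor mice of 6 to 8 weeks, growth for 7 days in medium conditioned by L929 cells, 12 h of incubation, and 500 nM for H151. They give no dose for SN-011, for which the methods name the same dose as for H151, and its libraries carry their own treatment text, so that a batch limited to those libraries and the antagonist cannot be told apart. The study describes the 2 libraries of a group as independent experiments, but neither it nor the labels say whether they came from separate mice, and the p-values then measure the spread between these libraries, which may be technical.

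ZBP1 is a sensor of nucleic acid in the Z conformation and is itself a product of an interferon-stimulated gene. It binds the kinase RIPK3 through shared RHIM motifs. RIPK3 phosphorylates MLKL, which then breaches the plasma membrane in the lytic death called necroptosis. The same platform can recruit RIPK1, the adaptor FADD and caspase-8, which leads to apoptosis, and caspase-8 paired with the inactive homologue cFLIP, encoded by Cflar, cleaves RIPK1 and RIPK3 and holds necroptosis in check. Trex1 is an exonuclease that clears cytosolic DNA, and its loss leaves cGAS and STING engaged. The activity of RIPK3, MLKL and caspase-8 is set largely by phosphorylation and cleavage, which transcript counts do not measure.

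Total counts per library ran from 11845470 to 17284863. Trex1 had 0 counts in all 8 libraries, WT included. In GENCODE vM21 all 1147 exonic bases of Trex1 lie within exons of Atrip on the same strand, and how reads in shared exons were counted is not given in the sources used here. The knockout could not be checked in these counts. Atrip read 14.1 and 17.4 CPM (counts relative to the TMM-scaled library total) in WT and between 54.3 and 70.4 CPM in the 6 Trex1-KO libraries. The 8 macrophage markers were all present, with a summed level between 30092 and 32363 CPM. Of these, calls against WT in Trex1-KO were for higher Adgre1, Cd68 and Fcgr1, and calls against Trex1-KO with each antagonist for lower Fcgr1. The 10 neutrophil markers summed to 9.49 to 9.86 CPM in WT libraries, 66.4 to 87.7 in Trex1-KO, 78.9 to 83.6 with H151 and 79.2 to 101 with SN-011, with Ly6g and Elane at 0 in WT. The 8 fibroblast and stromal markers summed to 2250 to 2446 CPM in WT libraries, 924 to 1147 in Trex1-KO, 1175 to 1289 with H151 and 1000.2 to 1204 with SN-011. The 12 B, T and NK cell markers summed to 36.3 to 36.6 CPM in WT libraries, 24.7 to 25.7 in Trex1-KO, 22.3 to 24.0 with H151 and 22.2 to 25.1 with SN-011. Nearly all of that sum was Cd4, at 33.9 and 33.3 CPM in WT libraries and 21.7 and 20.3 in Trex1-KO, where it was called lower. The other marker of this list that could be tested, Cd79b, differed by 0.58 on the log2 scale and was not called. The 7 dendritic cell markers summed to 1.69 to 2.72 CPM in WT libraries, 3.43 to 3.70 in Trex1-KO, 2.93 to 3.63 with H151 and 3.14 to 3.48 with SN-011, with Cd209a and Ccr7 at 0 throughout. Of the 3 tested, 2, Xcr1 and Clec9a, were called higher in Trex1-KO. The third, Zbtb46, went the other way, at -1.32 on the log2 scale, and was not called. All 3 had an unadjusted p under 0.05, and keeping genes of 1 count gave 3 calls in this list. In Trex1-KO against WT, all 6 neutrophil markers tested were called higher and 6 of 7 stromal markers lower, beside 9.27% and 7.11% of all genes. The filter on low counts left out Ly6g, Mpo, Elane and Cxcr2. Camp (1 and 7 counts in WT libraries), Xcr1 (3 and 1) and Clec9a (5 and 3) passed it only through libraries lacking Trex1. A call of these genes as lower was thus hardly open. The part of these markers in the results on genotype was not tested, and the edgeR quasi-likelihood test, edgeR's exact test and DESeq2 called none of the 6 neutrophil or 7 stromal markers tested between either antagonist and Trex1-KO. With H151 against Trex1-KO, an unadjusted p under 0.05 was seen for 2 stromal markers, and keeping genes of 1 count gave 2 calls. In bulk RNA, fewer cells of a type and less RNA per cell cannot be told apart.

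The sequences before the transcription starts were taken from RefSeq (GRCm38.p6) for 6 of the 7 genes, with 2 starts for Ripk1. That of Zbp1 was not analysed here. The 250 bases before each start were searched on both strands for AANNGAAA, the core letters bound by interferon regulatory factors, and for GAAANNGAA, a form of the interferon-stimulated response element that can overlap with it. Of 32851 windows of the same length, 21.3% held the first and 7.13% the second. The windows of Mlkl and Cflar, 2 genes that changed, are shown beside that of Casp8, which was not called in any comparison, with matches in capitals.
Mlkl (chr8:111338206-111338455, minus strand): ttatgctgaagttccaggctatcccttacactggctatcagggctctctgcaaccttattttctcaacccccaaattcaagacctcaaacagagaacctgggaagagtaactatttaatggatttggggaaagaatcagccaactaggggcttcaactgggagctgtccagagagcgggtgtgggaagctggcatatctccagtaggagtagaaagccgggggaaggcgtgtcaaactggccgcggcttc
Cflar (chr1:58711241-58711490, plus strand): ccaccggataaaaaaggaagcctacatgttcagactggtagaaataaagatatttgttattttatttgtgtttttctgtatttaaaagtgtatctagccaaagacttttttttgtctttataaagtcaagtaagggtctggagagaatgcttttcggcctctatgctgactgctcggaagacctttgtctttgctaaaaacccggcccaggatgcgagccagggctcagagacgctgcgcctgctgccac
Casp8 (chr1:58802252-58802501, plus strand): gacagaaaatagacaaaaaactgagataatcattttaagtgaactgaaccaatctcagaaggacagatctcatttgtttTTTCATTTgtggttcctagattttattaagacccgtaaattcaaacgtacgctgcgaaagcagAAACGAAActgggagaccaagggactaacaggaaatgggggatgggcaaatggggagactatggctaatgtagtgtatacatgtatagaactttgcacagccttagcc
The Casp8 window held 2 matches to the interferon regulatory factor core, AAACGAAA on the gene's strand from 108 to 101 bases before the start and a match on the other strand, which reads TTTCATTT as printed, from 171 to 164 bases before it. Neither motif was found in the windows of Mlkl, Cflar, Ripk3, Fadd or either Ripk1 start. A match is a run of letters, and its absence says only that these letters are not in the window. The Casp8 window ends at base 58802501, inside the gene, which begins at base 58795374 in GENCODE vM21. The bases before that first start were not searched.

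The sensor showed the widest movement of the 7. Zbp1 (ENSMUSG00000027514, GRCm38, chr2:173206612-173218923) stood at 35.7 and 28.9 CPM in WT libraries, at 150.5 and 131 CPM in Trex1-KO, 64.3 and 69.9 CPM with H151, and 59.4 and 73.0 CPM with SN-011. The Trex1-KO libraries lay above all others, the antagonist libraries lay between them and WT, and the 2 antagonist groups overlapped. These values rested on 427 to 1995 counts per library. Zbp1 rose 4.35-fold in Trex1-KO, a log2 fold change of 2.12 ± 0.12 (SE, edgeR quasi-likelihood F-test, p adjusted over all tested genes by Benjamini-Hochberg = 3.05e-08). It fell by 1.06 ± 0.11 on the log2 scale with H151 (edgeR FDR-adjusted p = 6.23e-05) and by 1.09 ± 0.11 under SN-011 (edgeR FDR-adjusted p = 6.69e-05), each against Trex1-KO. Both antagonist groups stayed above WT, by 1.06 ± 0.12 with H151 (edgeR FDR-adjusted p = 5.06e-05) and by 1.03 ± 0.12 under SN-011 (edgeR FDR-adjusted p = 6.62e-05). In order, the WT level of 32.3 ± 4.8 CPM (SD, n = 2) was followed by 66.2 ± 9.6 with SN-011, 67.1 ± 4.0 with H151 and 141 ± 14 in Trex1-KO, and only the SN-011 and H151 groups were neighbours that did not differ beyond their spread. The contrasts share control libraries, H151 and SN-011 being set against the same Trex1-KO libraries and all 3 against the same WT libraries. The study counts Zbp1 and Mlkl among its STING-dependent M7core genes, so their direction here is not independent evidence on that list.

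**Figure D1:**
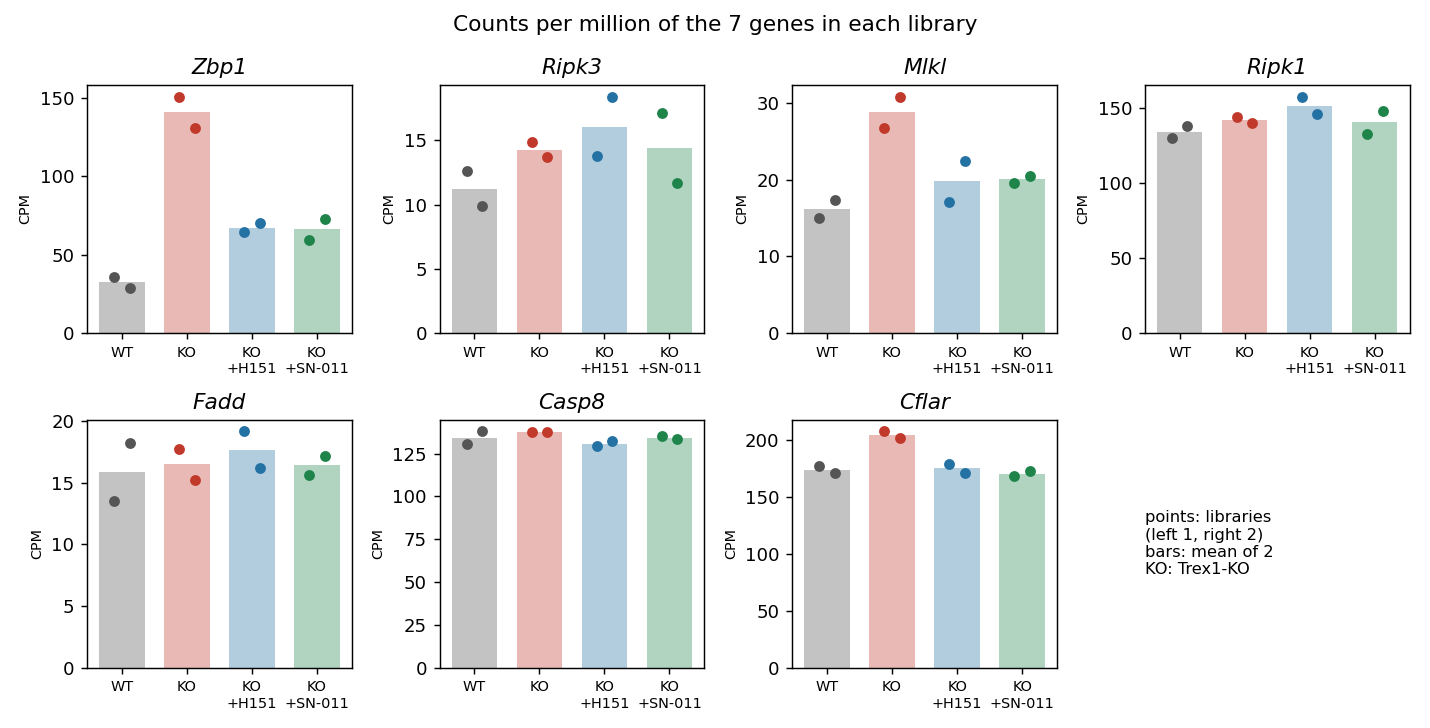
CPM (y axis) of each of the 7 genes in WT, Trex1-KO, Trex1-KO+H151 and Trex1-KO+SN-011 libraries (x axis). Points are libraries and bars are means of 2. The Trex1-KO libraries of Zbp1 (150.5 and 131 CPM), Mlkl (26.8 and 30.9 CPM) and Cflar (208 and 202 CPM) lie above every other library, while Casp8 spans 129 to 138 CPM.

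The executioner also rose in Trex1-KO, over a smaller range. Mlkl (ENSMUSG00000012519, chr8:111311797-111338177) read 15.02 and 17.4 CPM in WT libraries, 26.8 and 30.9 CPM in Trex1-KO, 17.1 and 22.5 CPM with H151, and 19.6 and 20.6 CPM with SN-011. The Trex1-KO libraries again lay above the other 6, and 1 H151 library lay within the WT range. It rose 1.78-fold in Trex1-KO, a log2 fold change of 0.83 ± 0.14 (SE, edgeR FDR-adjusted p = 0.000752). The differences from Trex1-KO were -0.54 ± 0.14 with H151 (95% interval -0.83 to -0.24, edgeR FDR-adjusted p = 0.0667) and -0.53 ± 0.13 with SN-011 (-0.82 to -0.24, edgeR FDR-adjusted p = 0.0669), and neither was called. These 2 values sit near the threshold: edgeR's exact test called both (adjusted p = 0.0108 and 0.0140), as did the quasi-likelihood test with genes of 1 count kept (0.00196 and 0.00235). DESeq2 called neither. Of the alternatives other than leaving out 1 library, 6 of 9 with H151 and 4 of 8 with SN-011 left Mlkl uncalled. The study names a negative binomial test of edgeR without saying which. Without H151 replicate 2 the H151 difference was -0.75 (edgeR FDR-adjusted p = 0.00936), and without H151 replicate 1 it was -0.36 (0.423). Against WT, Mlkl differed by 0.30 ± 0.14 with H151 (edgeR FDR-adjusted p = 0.225) and by 0.31 ± 0.14 under SN-011 (edgeR FDR-adjusted p = 0.220).

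The kinase between sensor and executioner was measured with less precision. Ripk3 (ENSMUSG00000022221, chr14:55784995-55788865) read 12.6 and 9.90 CPM in WT libraries, 14.9 and 13.7 CPM in Trex1-KO, 13.8 and 18.4 CPM with H151, and 17.1 and 11.7 CPM with SN-011. Its libraries within the SN-011 group differed more than the means of any 2 groups, on 138 to 294 counts per library. The log2 fold change in Trex1-KO was 0.35 ± 0.20 (SE, 95% interval -0.08 to 0.77, edgeR FDR-adjusted p = 0.286). Its difference from Trex1-KO was 0.18 ± 0.19 with H151 (edgeR FDR-adjusted p = 0.912) and 0.03 ± 0.19 with SN-011 (edgeR FDR-adjusted p = 0.968). The largest difference was between H151 and WT, 0.53 ± 0.20 (edgeR FDR-adjusted p = 0.107). Leaving out 1 library at a time, it ran from 0.30 without H151 replicate 2 (edgeR FDR-adjusted p = 0.447) to 0.72 without H151 replicate 1 (0.0358), the latter being called, as was the value with genes of 1 count kept, 0.51 (0.0162). In Trex1-KO against WT the same range was 0.18 without WT replicate 2 to 0.53 without WT replicate 1, with no call.

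The regulatory subunit of the caspase-8 complex also changed, by a small amount. Cflar (ENSMUSG00000026031, chr1:58711508-58758884) read 177 and 171 CPM in WT libraries, 208 and 202 CPM in Trex1-KO, 179 and 172 CPM with H151, and 169 and 173 CPM with SN-011. The Trex1-KO libraries lay above the other 6, and the other 3 groups overlapped. It rose 1.18-fold in Trex1-KO, a log2 fold change of 0.23 ± 0.06 (SE, edgeR FDR-adjusted p = 0.0127), and fell by 0.26 ± 0.06 with SN-011 against Trex1-KO (edgeR FDR-adjusted p = 0.0290). The difference with H151 was -0.22 ± 0.06 and was not called (edgeR FDR-adjusted p = 0.0777). The rise was not called without WT replicate 2 (0.21, edgeR FDR-adjusted p = 0.112), without Trex1-KO replicate 1 (0.21, 0.0885) or with libraries scaled by total counts only (0.15, 0.109). The fall with SN-011 was not called without Trex1-KO replicate 1 (-0.24, edgeR FDR-adjusted p = 0.201), Trex1-KO replicate 2 (-0.28, 0.0752), SN-011 replicate 1 (-0.25, 0.325) or SN-011 replicate 2 (-0.28, 0.169), nor with total counts only (-0.24, 0.0663). Counts per gene do not separate the long and short forms of cFLIP.

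The remaining 3 members, which build the platform on which caspase-8 and RIPK3 compete, were not called in any of the 6 comparisons. Casp8 (ENSMUSG00000026029, chr1:58795374-58847503), which lies downstream of Cflar on the same strand of chromosome 1, read 130.4 and 138 CPM in WT libraries, 138 and 138 CPM in Trex1-KO, 129 and 132 CPM with H151, and 135 and 133 CPM with SN-011. Its log2 fold change in Trex1-KO was 0.04 ± 0.06 (SE), with a 95% interval from -0.09 to 0.16. Ripk1 (ENSMUSG00000021408, chr13:34002363-34037147), the kinase that acts as a scaffold under death receptors, read 129.8 and 138 CPM in WT libraries, 144 and 140.1 CPM in Trex1-KO, 157 and 145 CPM with H151, and 133 and 148 CPM with SN-011. Its log2 fold change in Trex1-KO was 0.08 ± 0.07 (SE), with a 95% interval from -0.07 to 0.24. Fadd (ENSMUSG00000031077, chr7:144577318-144582463), the adaptor that brings caspase-8 to the complex, read 13.5 and 18.2 CPM in WT libraries, 17.7 and 15.2 CPM in Trex1-KO, 19.1 and 16.2 CPM with H151, and 15.7 and 17.2 CPM with SN-011. The WT libraries of Fadd span the whole range of the Trex1-KO libraries, and its log2 fold change of 0.05 ± 0.16 (SE) had a 95% interval from -0.29 to 0.38. With total counts only, the signs of the Trex1-KO differences of Ripk1 (0.00), Fadd (-0.04) and Casp8 (-0.05) turned. Exons of Ripk1 share 511 bases with the pseudogene Gm17084 and 241 with Serpinb6a, and those of Fadd share 239 with its antisense gene Faddos, and how reads from such parts were counted is not given in the sources used here.

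Counted over the 7 genes, Zbp1, Mlkl and Cflar were higher in Trex1-KO than in WT and none was lower, against a background of 9.27% of the 14591 tested genes called higher and 7.11% called lower. In the H151 group, 1 of 7 (Zbp1) was lower than in Trex1-KO and none higher, beside 1.84% of all genes lower and 0.384% higher. With SN-011, 2 of 7 (Zbp1 and Cflar) were lower and none higher, beside 2.22% lower and 0.11% higher. Zbp1 alone of the 7 was called against WT with H151, beside 11.8% of all genes in either direction, and with SN-011, beside 11.7%. The median log2 fold change of the 7 was 0.23 in Trex1-KO against WT, -0.07 with H151 and -0.04 with SN-011 against Trex1-KO, and the median of all tested genes was 0.00, 0.00 and 0.01. With total counts only, the share of higher genes among all genes called in Trex1-KO against WT moved from 56.6% to 37.2%, while Zbp1 and Mlkl stayed called higher.

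**Figure D2:**
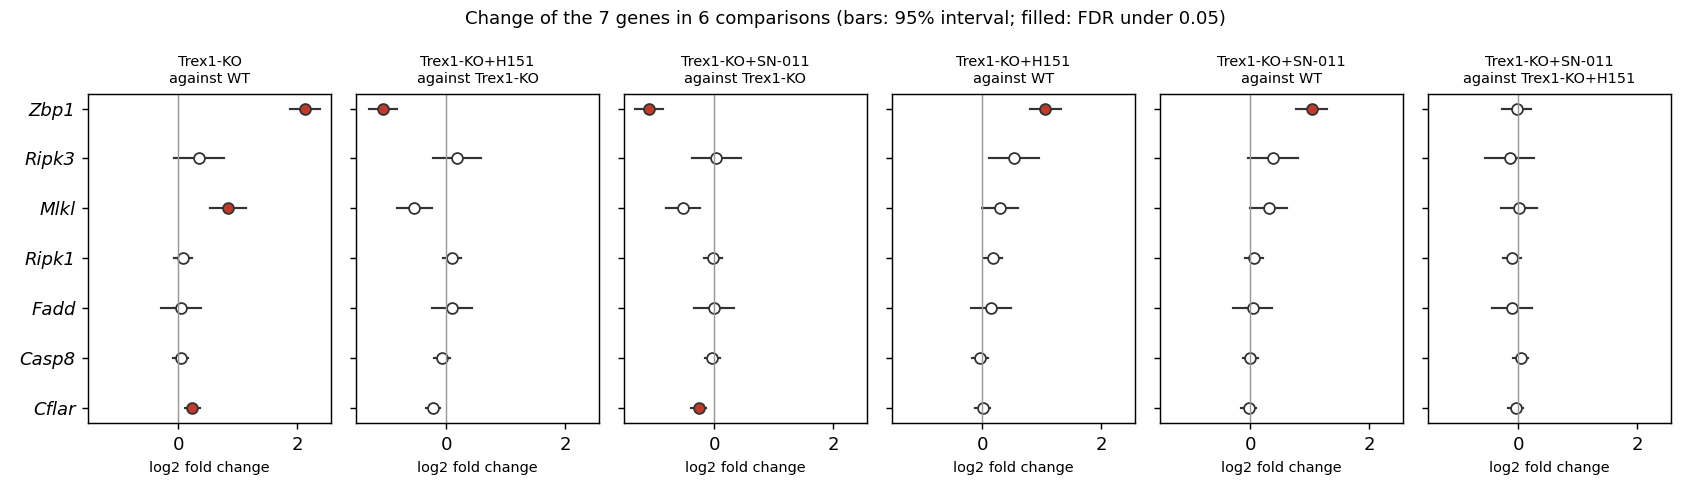
Log2 fold change (x axis) of the 7 genes (y axis) in each of 6 comparisons. Bars are 95% intervals, and filled points have a Benjamini-Hochberg adjusted p under 0.05. Zbp1 is filled in the 5 comparisons other than SN-011 against H151, and Mlkl in Trex1-KO against WT alone, where it reads 0.83.

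The 2 antagonists were compared directly. None of the 7 genes was called between SN-011 and H151 by the edgeR quasi-likelihood test, and none had an unadjusted p under 0.05, beside 0.158% of all genes called. The difference of SN-011 from H151 was -0.03 on the log2 scale for Zbp1 (95% interval -0.27 to 0.21), 0.01 for Mlkl (-0.29 to 0.31) and -0.04 for Cflar (-0.17 to 0.09). It was -0.15 for Ripk3 (-0.55 to 0.26), -0.11 for Ripk1 (-0.26 to 0.04), -0.11 for Fadd (-0.44 to 0.23) and 0.04 for Casp8 (-0.09 to 0.17). The intervals of Casp8 and Cflar stayed within 0.17 of 0, and those of Fadd and Ripk3 reached -0.44 and -0.55. edgeR's exact test and DESeq2 also called none of the 7.

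Because counts grow with transcript length, levels were set beside each other only per kb of exon. In WT, Casp8 was highest at 46.4 CPM per kb, followed by Ripk1 at 16.0, Cflar at 13.8, Zbp1 at 9.16, Mlkl at 7.03, Ripk3 at 4.90 and Fadd at 4.07. In Trex1-KO, Zbp1 at 39.8 CPM per kb stood second to Casp8 at 47.6, above Ripk1 at 17.03, Cflar at 16.2 and Mlkl at 12.5. With either antagonist, Zbp1 stood at 19.0 (H151) and 18.8 (SN-011) CPM per kb, close to Ripk1 at 18.1 and 16.8. The exon length is the union over annotated transcripts, 12669 bases for Cflar and 2303 for Mlkl, and a gene that uses short transcripts reads low on this scale.

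**Figure D3:**
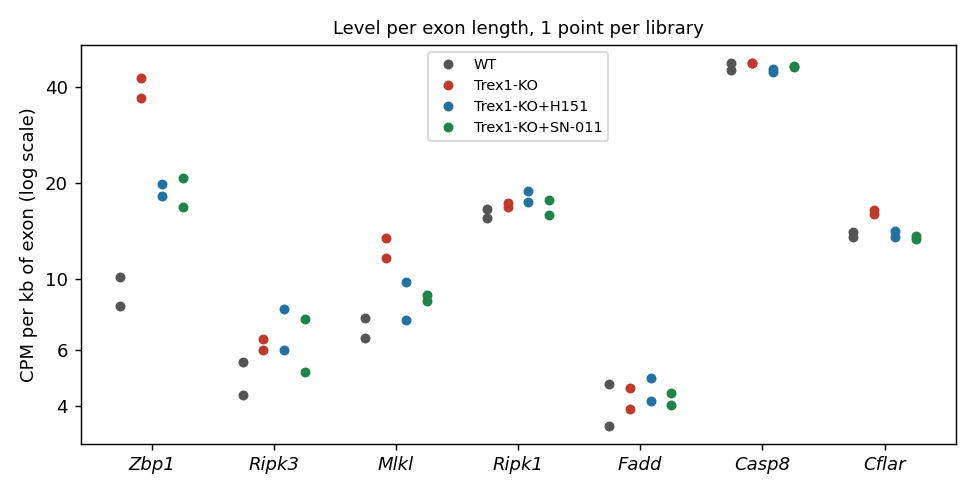
Level of each gene in CPM per kb of exon (y axis, log scale), 1 point per library, coloured by group. Zbp1 moves from 9.16 in WT to 39.8 in Trex1-KO (means), while Casp8 stays between 44.7 and 47.7 in all 8 libraries.

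Ratios of 2 members within 1 library do not depend on how libraries were scaled. Zbp1 over Ripk3, per kb of exon, was 1.84 and 1.90 in WT, 6.58 and 6.18 in Trex1-KO, 3.03 and 2.47 with H151, and 2.26 and 4.04 with SN-011. The ratio was thus 3.41-fold higher in Trex1-KO than in WT, and its libraries overlapped only between the antagonist groups. Mlkl over Ripk3 was 1.19 and 1.75 in WT, 1.79 and 2.24 in Trex1-KO, 1.24 and 1.22 with H151, and 1.14 and 1.75 with SN-011. Cflar over Casp8 was 0.311 and 0.283 in WT, 0.345 and 0.335 in Trex1-KO, 0.317 and 0.297 with H151, and 0.285 and 0.296 with SN-011, so that both Trex1-KO libraries lay above the other 6. Ripk3 over Ripk1 was 0.353 and 0.261 in WT, 0.376 and 0.357 in Trex1-KO, 0.319 and 0.461 with H151, and 0.469 and 0.289 with SN-011. A two-sided exact permutation test with 2 libraries against 2 cannot go below p = 0.333. It gives that value whenever the libraries of the 2 groups do not overlap, so it decides nothing here. That smallest value was reached by Zbp1 over Ripk3, Mlkl over Ripk3 and Cflar over Casp8 in Trex1-KO against WT and in each antagonist against Trex1-KO, and by Ripk3 over Ripk1 in Trex1-KO against WT. Zbp1 over Ripk3 reached it also for each antagonist against WT, and Cflar over Casp8 for SN-011 against H151.

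**Figure D4:**
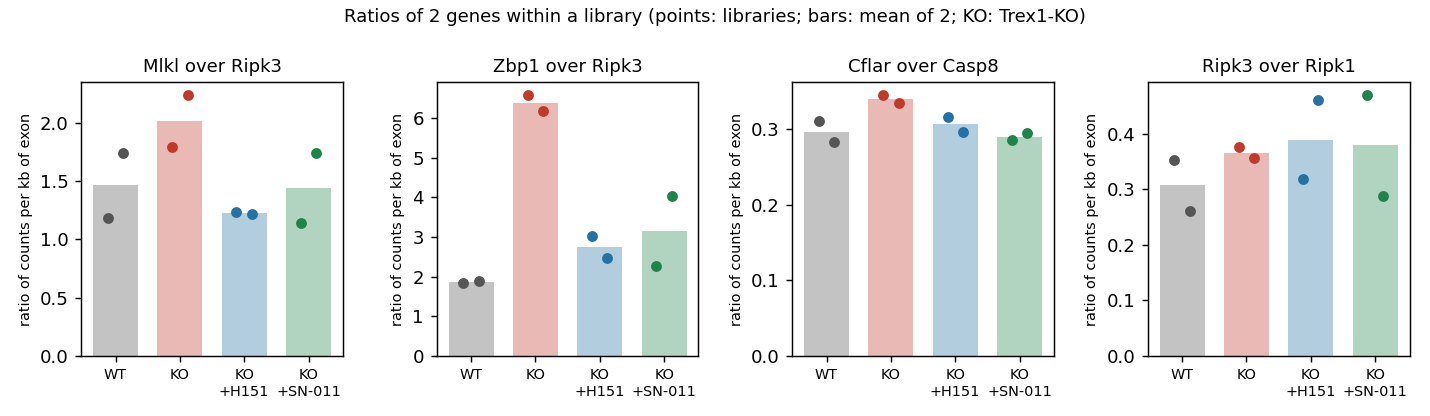
Ratio of 2 genes within a library, in counts per kb of exon (y axis), by group (x axis). Points are libraries and bars are means of 2. Zbp1 over Ripk3 averages 1.87 in WT and 6.38 in Trex1-KO.

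Around the 7 genes, 78 genes of the pathway were read from 5 lists, and 77 were tested, Fasl being too low. In Trex1-KO 23 of the 77 were called higher and 1 lower than in WT, which is 29.9% higher where 9.27% of all genes were, and 1.30% lower where 7.11% of all genes were. With H151 13 of 77 (16.9%) were lower and none higher than in Trex1-KO, beside 1.84% of all genes lower. With SN-011 15 (19.5%) were lower and none higher, beside 2.22% of all genes lower. None of the 77 was called between the antagonists by the edgeR quasi-likelihood test, edgeR's exact test or DESeq2, and 11 had an unadjusted p under 0.05. With genes of 1 count kept, 1 was called.

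Among the tested death receptors, ligands and adaptors, the ligand genes Tnfsf10 and Tnf held the largest changes in Trex1-KO against WT. Fasl, also a ligand gene of this list, read 0 CPM throughout and gave no fold change, so ligands as a class were not compared. Of 12 tested death receptors, ligands and adaptors, 4 were higher and 1 lower in Trex1-KO (33.3% and 8.33%, beside 9.27% and 7.11% of all genes), with a median log2 fold change of 0.20. Tnfsf10, which encodes the death ligand TRAIL, stood at 6.33 and 4.34 CPM in WT but at 25.1 and 17.7 CPM in Trex1-KO, a log2 fold change of 2.00 ± 0.22 (SE, edgeR FDR-adjusted p = 2.27e-05). Tnf, the ligand that engages RIPK1 through its receptor, went from 7.14 and 2.44 CPM in WT to 18.5 and 16.2 CPM in Trex1-KO (1.87 ± 0.30, edgeR FDR-adjusted p = 0.000575). Tlr3, an endosomal sensor of double-stranded RNA that can reach RIPK3 through TRIF, rose by 1.12 ± 0.10 (edgeR FDR-adjusted p = 3.94e-06), and the TRAIL receptor gene Tnfrsf10b fell by 0.69 ± 0.22 (edgeR FDR-adjusted p = 0.0487). Tnfsf10 fell by 1.55 ± 0.21 with H151 (edgeR FDR-adjusted p = 0.000772) and by 1.71 ± 0.21 with SN-011 (0.000413), to 6.03 to 8.40 CPM in the 4 antagonist libraries. Tlr3 fell by 0.53 and 0.58. Tnf fell by 1.54 ± 0.29 with SN-011 (edgeR FDR-adjusted p = 0.00943), while its difference of -1.11 ± 0.28 with H151 was not called (0.0659), and the difference between the antagonists was -0.44 with a 95% interval from -1.11 to 0.24.

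Of 21 genes for ubiquitin ligases, deubiquitinases, kinases and their partners that act around RIPK1, 5 were higher (23.8%, beside 9.27% of all genes) and none lower in Trex1-KO, with a median of 0.14. Tank, an adaptor of the kinases TBK1 and IKKε, rose by 0.61 ± 0.07, Rnf31, the catalytic subunit of the linear ubiquitin ligase, by 0.49 ± 0.07, and Ikbke, which encodes IKKε, by 0.41 ± 0.07 (edgeR FDR-adjusted p between 4.97e-05 and 0.000848). With H151, 4 of 21 (19.0%, beside 1.84% of all genes) were lower than in Trex1-KO, led by Ikbke (-0.40), Tank (-0.40) and Rnf31 (-0.31). With SN-011, 5 of 21 (23.8%, beside 2.22%) were lower, led by the ubiquitin-editing enzyme gene Tnfaip3 (-0.64 ± 0.13), the ubiquitin ligase gene Birc3 (-0.57 ± 0.10) and Tnip1 (-0.49 ± 0.09), which encodes a partner of the TNFAIP3 protein. These 3 were not called with H151, at -0.50, -0.23 and -0.30, and the differences of SN-011 from H151 were -0.14 (95% interval -0.43 to 0.15), -0.33 (-0.54 to -0.12) and -0.19 (-0.39 to 0.00), none of them called over all genes (edgeR FDR-adjusted p = 0.783, 0.364 and 0.557).

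**Figure D5:**
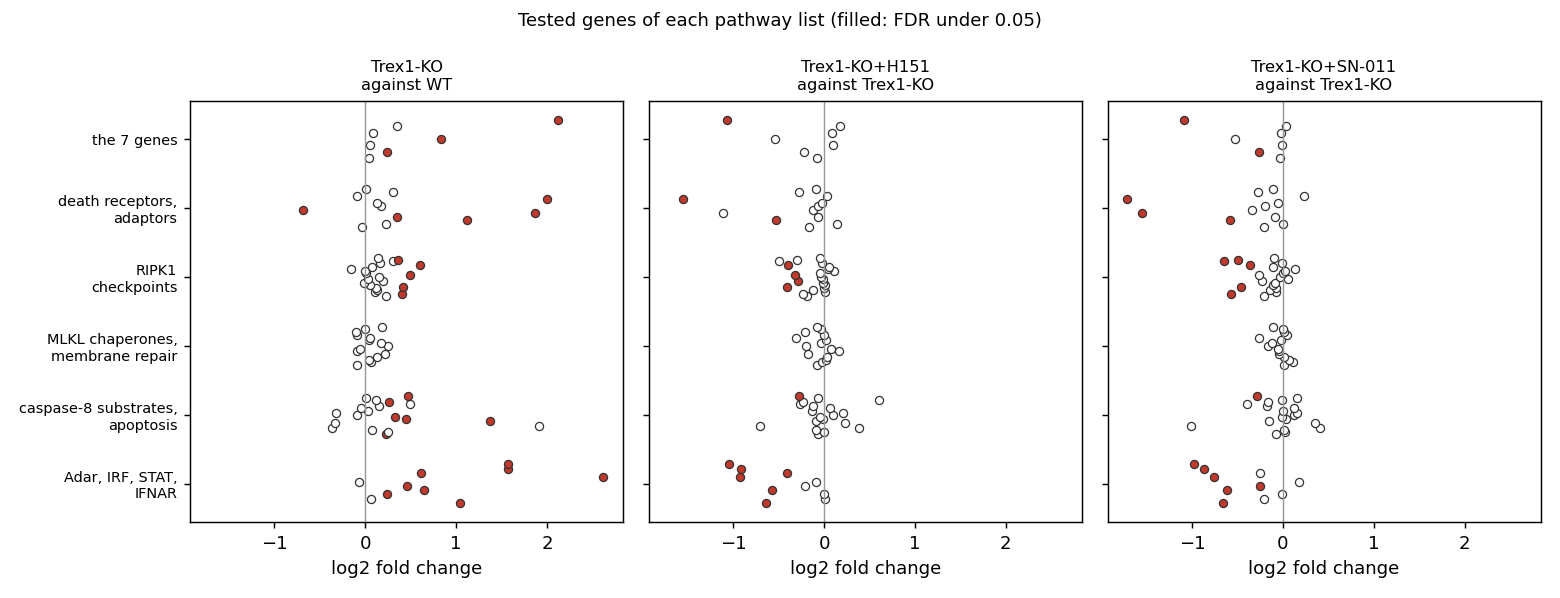
Log2 fold change (x axis) of each tested gene of the 7 members and 5 pathway lists (y axis) in 3 comparisons. Filled points have an adjusted p under 0.05. The 15 genes of MLKL chaperones and membrane repair hold no filled point, and the Adar, IRF, STAT and IFNAR list holds 8 of 10 in Trex1-KO against WT. In that comparison 9.27% of all genes were called higher and 7.11% lower.

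Genes for proteins that act around MLKL were measured apart from Mlkl itself. Of the 15 genes for HSP90 and its partners, phosphatases tied to necroptosis, an inositol phosphate kinase, and the ESCRT-III proteins that shed damaged membrane, none was called by the edgeR quasi-likelihood test in any of the 6 comparisons. Over all genes, 9.27% were called higher and 7.11% lower in Trex1-KO against WT. Against Trex1-KO, 1.84% were lower with H151 and 2.22% with SN-011, and 0 of 15 is near these 2 shares. At an unadjusted p under 0.05 there were 3 in H151 against WT, 0 in SN-011 against WT and 3 in SN-011 against H151. There were also 3 in Trex1-KO against WT, 1 with H151 and 0 with SN-011 against Trex1-KO, and edgeR's exact test and DESeq2 called 0 in these last 3 comparisons. With genes of 1 count kept, 1 of the 15 was called in Trex1-KO against WT and 0 with either antagonist against Trex1-KO. In H151 against WT, the exact test and the fit with genes of 1 count kept each called 1. Their log2 fold changes ran from -0.11 to 0.25 in Trex1-KO against WT, from -0.31 to 0.17 with H151 and from -0.26 to 0.11 with SN-011 against Trex1-KO.

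Of 19 caspase-8 substrates and apoptosis genes, 6 were higher (31.6%, beside 9.27% of all genes) and none lower in Trex1-KO, with a median of 0.15. In either direction, edgeR's exact test called 9 of the 19 in this comparison, DESeq2 4, and the fit with genes of 1 count kept 7. Among the called genes, the largest rises were of Bcl2a1d by 1.38 ± 0.16, Mcl1 by 0.47 ± 0.05 and Bcl2l1, which encodes BCL-XL, by 0.45 ± 0.08 (edgeR FDR-adjusted p between 2.65e-05 and 0.00196). These 3 encode relatives of BCL2 that restrain apoptosis. The other 3 called higher, named after their values were seen, encode proteins that promote cell death, Bid at 0.33 ± 0.09, Gsdmd at 0.26 ± 0.07 and Apaf1 at 0.23 ± 0.07 (edgeR FDR-adjusted p = 0.0209, 0.0159 and 0.0295). Bcl2 itself, at -0.36 ± 0.24, and Bcl2a1b, at -0.34 ± 0.34, were not called (edgeR FDR-adjusted p = 0.380 and 0.586). Bcl2a1d belongs to a family of near-identical copies and its counts are uncertain; its relative Bcl2a1a, at 1.91 ± 0.67, was not called (edgeR FDR-adjusted p = 0.0732). Mcl1 was the 1 gene of the list called against Trex1-KO with either antagonist, falling by 0.27 ± 0.05 with H151 and by 0.28 ± 0.05 with SN-011 (edgeR FDR-adjusted p = 0.0117 and 0.00883). Bcl2l1 read 33.8 and 35.7 CPM in WT and between 45.9 and 50.9 CPM in all 6 Trex1-KO libraries, and it remained higher than WT by 0.44 ± 0.08 with H151 and by 0.48 ± 0.08 with SN-011 (edgeR FDR-adjusted p = 0.00334 and 0.00173). Mcl1 and Bcl2a1d were also called higher than WT with each antagonist. With either, 4 of 19 were higher than WT and none lower, beside 11.8% (H151) and 11.7% (SN-011) of all genes called in either direction.

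The list of interferon factors upstream of Zbp1, which also holds Adar, showed the most calls of the 5 lists, 8 of 10 higher in Trex1-KO (80.0%, beside 9.27% of all genes), with a median log2 fold change of 0.63. Irf7, a transcription factor that amplifies type I interferon, rose by 2.62 ± 0.12 (edgeR FDR-adjusted p = 7.16e-09), and Stat2, which carries the signal of the interferon receptor, by 1.57 ± 0.07 (edgeR FDR-adjusted p = 3.24e-09). Irf7 and Stat2 fell by 0.93 and 1.05 with H151 and by 0.75 and 0.98 with SN-011, and 6 of the 10 were lower than Trex1-KO with each antagonist, beside 1.84% of all genes with H151 and 2.22% with SN-011. Adar, 1 of these 8 and named after its values were seen, encodes the editor of double-stranded RNA that shares the Z-nucleic acid binding fold with ZBP1 and limits its activation. It read 93.6 and 85.3 CPM in WT libraries, 192 and 176 CPM in Trex1-KO, 113 and 123 CPM with H151, and 118 and 116 CPM with SN-011. As with Zbp1, the WT libraries of Adar lay lowest, the Trex1-KO libraries highest and the overlapping antagonist groups between them. The log2 fold change of Adar in Trex1-KO was 1.04 ± 0.07 (SE, edgeR FDR-adjusted p = 2.49e-07) against 2.12 for Zbp1.

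Across the 8 libraries, the genes with the pattern most like that of Zbp1, among 10708 genes whose log2 CPM averaged 2 or more, were Phf11b (Pearson's r of log2 CPM 0.999), Phf11d (0.997), Oas2 (0.997), Tlr3 (0.995) and Helz2 (0.995). Phf11b and Phf11d are close copies of one another, and reads shared between them make their counts uncertain. For Mlkl they were Vcpip1 (0.986), BE692007 (0.981), Fcna (0.978), Epsti1 (0.976) and Trim12a (0.974). Among the members themselves, r was 0.886 between Zbp1 and Mlkl, 0.786 between Zbp1 and Cflar and 0.462 between Zbp1 and Ripk3. These values describe 8 libraries that fall into 4 groups and share those group differences.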

How the data were processed

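The authors trimmed reads with Trimmomatic, aligned them with hisat2 and counted uniquely mapped pairs with featureCounts, per the methods, whereas the submitters' processing notes name HISAT2, HTSeq and the mm10 build. The methods describe a strand-specific library protocol. Tool versions, annotation release and the strand setting of the counting are not given in the sources used here. The deposited values are raw counts for 54532 Ensembl genes per library, of which 54495 were matched to GENCODE vM21 (GRCm38). Groups were read from the sample titles. Genes were filtered with filterByExpr (minimum count 10, minimum total 15), and 14591 remained. All 8 libraries were fitted together in edgeR 4.0.16 (R 4.3.3) with TMM factors between 0.973 and 1.04 and 1 mean per group, and contrasts were tested with quasi-likelihood F-tests (two-sided) p-values being adjusted by Benjamini-Hochberg across the tested genes and read at a threshold of 0.05. Genes past it are said to be called. Standard errors were taken as the size of the log2 fold change divided by the root of F. The common biological coefficient of variation was 0.0656. The counting error of a member was at most 8.51%, and it covers counting only. The steps were tested on simulated data. Alternatives were total counts only, DESeq2 size factors (RLE), other count filters, edgeR's exact test, DESeq2 1.42.0, fits of 2 groups or without SN-011, the replicate number as a block, and leaving out each library.

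The members, lists and naming rule were chosen with earlier results of these data known. Named genes were all members, the called genes of each pathway list that rose most and fell most, at most 3 in each direction, in each of 3 comparisons (Trex1-KO against WT, each antagonist against Trex1-KO), and the 5 genes most correlated with Zbp1 and with Mlkl. Trex1 and Atrip were named for the check of the knockout. One gene and one motif that these rules would name are not reported here.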

Additional observations from a re-analysis of the deposited data

How the results depend on the processing

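Of 446 values of single members recomputed under the alternatives, 409 kept their direction and their side of the threshold. Zbp1 kept both in every alternative of the 5 comparisons in which it was called, and Mlkl in every alternative of Trex1-KO against WT. With total counts only, Ripk1 (-0.00032), Fadd (-0.038) and Casp8 (-0.048) turned sign in Trex1-KO against WT, Cflar was no longer called there (0.15) or with SN-011 against Trex1-KO (-0.24), and the members called with SN-011 went from 2 to 1. With genes of 1 count kept, 3 members were called with H151 against Trex1-KO, adding Mlkl (-0.54) and Cflar (-0.23), Mlkl was called with SN-011 (-0.53), and 2 members were called with H151 against WT, adding Ripk3 (0.51). edgeR's exact test called 2 members with H151, adding Mlkl (-0.54), and called Mlkl with SN-011 (-0.53), as did the fit of only the 2 groups (-0.53). The calls over all genes moved from 325 to 525 with H151 and from 340 to 679 with SN-011, both against Trex1-KO, when genes of 1 count were kept. Among them, higher calls went from 56 to 131 with H151 and from 16 to 194 with SN-011, and stood at 88 and 68 with the exact test and at 93 and 49 with the replicate block. Between the antagonists they moved from 23 to 266 with that filter, to 84 with the exact test, to 38 with DESeq2 and to 44 with the replicate block.

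Replicate numbers are shared between groups, but the labels do not say what they stand for. The deviations of same-numbered libraries correlated at 0.194 between Trex1-KO and H151 and between -0.02 and 0.06 for the other pairs of groups. With the replicate number as a block, 2 members were called with H151 against Trex1-KO, adding Mlkl (-0.54), and Mlkl was called with SN-011 (-0.51). The block changed no other call of a member.

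Leaving out 1 library at a time, the number of members called ran from 2 to 3 in Trex1-KO against WT, from 1 to 2 with H151 and from 1 to 3 with SN-011 against Trex1-KO, and from 1 to 2 with H151 against WT. In Trex1-KO against WT, Cflar ran from 0.21 to 0.26, Fadd from -0.15 to 0.28 and Casp8 from -0.00207 to 0.078. With H151 against Trex1-KO, Mlkl ran from -0.75 to -0.36 and Ripk3 from -0.052 to 0.37. With SN-011 against Trex1-KO, Mlkl ran from -0.62 to -0.42, being called without either H151 library, Cflar from -0.28 to -0.24 and Ripk3 from -0.28 to 0.26. Between SN-011 and H151, Zbp1 ran from -0.18 to 0.12, Mlkl from -0.17 to 0.23, Ripk3 from -0.46 to 0.087 and Fadd from -0.23 to 0.011. The calls over all genes fell from 2390 to 1588 in Trex1-KO against WT without WT replicate 1 and from 340 with SN-011 against Trex1-KO to 121 and 174 without SN-011 replicates 1 and 2 and to 197 without Trex1-KO replicate 1, from 1726 with H151 against WT to 986 and 1112 without WT replicates 1 and 2, from 1714 with SN-011 against WT to 1052 and 906 without SN-011 replicates 1 and 2 and to 975 without WT replicate 1, and ran from 2 to 270 between the antagonists. On the log2 scale, the ratio of Zbp1 to Ripk3 ran from 1.72 to 1.81 in Trex1-KO against WT, from -1.37 to -1.07 with H151 and from -1.50 to -0.66 with SN-011 against Trex1-KO. In the same order, Mlkl over Ripk3 ran from 0.20 to 0.76, from -0.87 to -0.55 and from -0.81 to -0.20, Cflar over Casp8 from 0.13 to 0.26, from -0.20 to -0.10 and from -0.25 to -0.20, and Ripk3 over Ripk1 from 0.05 to 0.49, from -0.20 to 0.33 and from -0.34 to 0.36, turning sign with each antagonist. Ripk3 and Fadd had the fewest counts, 138 to 294 per library, a counting error of 5.83% to 8.51% for Ripk3, whose 95% interval in Trex1-KO against WT runs from -0.08 to 0.77. The causes of these shifts were not tested.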
